A study of Mus musculus with 4 samples.

Results

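Aldh1a3, Crabp1, Crabp2 and Cyp26b1 are the genes for retinoid synthesis, binding and breakdown described here, 4 of the 328 genes of a mouse Xenium panel. They were grouped by their known roles, and no threshold on a measured value defines the group. Their 550478 transcripts made up 1.53% of the 35982443 transcripts decoded with a quality score of at least 20. Cells make retinoic acid from retinol in oxidation steps, the last of which is done by aldehyde dehydrogenases such as ALDH1A3. CRABP2 carries retinoic acid to its receptors in the nucleus, CRABP1 holds it in the cytoplasm, where it can be passed on to breakdown, and CYP26B1 is a cytochrome P450 that oxidizes it to inactive products. In skin and oral epithelium retinoic acid shifts the differentiation of keratinocytes and the cycle of the hair follicle, and its local level is set by the balance of these steps.

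In the Xenium assay, probes for a fixed panel are decoded as single spots inside intact tissue, and sections of 5 µm of dorsal skin, buccal mucosa and wounds lay on 4 slides. The skin came from Tet-On mice carrying TRE-Pitx1 and Krt5-rtTA, in which the Krt5 promoter limits the transgene to keratinocytes. PITX1+ mice had doxycycline in their food for 6 weeks, begun while the follicles were at rest (telogen), and their Control littermates (vehicle in the labels) had none. Buccal mucosa came from Control mice without doxycycline, both sexes on 1 slide, and the wounds, 3.5 mm and full thickness, were taken from male mice on day 4. The labels give neither the age of the mice nor the condition of each section, which was taken from the order of the sections on a slide, as described with the processing. There were 3 Control sections (Control 1 and 2 female, Control 3 male), 4 sections assigned to PITX1+ skin (PITX1+ 1 and 2 female, PITX1+ 3 and 4 male), 7 buccal sections, 1 Control wound and 2 PITX1+ wounds. Slide and sex cannot be told apart in skin, nor slide and tissue between skin and buccal mucosa. Each section counts as 1 replicate, and p-values measure the spread between sections, which may in part be technical.

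Cells with at least 10 transcripts were kept, 426404 of 514895, and held 446626 to 733476 transcripts per section in Control skin, 2809657 to 5560941 in PITX1+ skin and 134076 to 2367327 in buccal mucosa. Pitx1 over all cells was 76.3, 53.8 and 11.2 CPM (counts per 1000000 panel transcripts) in the Control sections, and 53.7, 63.5, 727 and 437 CPM in PITX1+ 1 to 4. The female sections assigned to PITX1+ skin therefore did not stand above Control skin for the induced gene, and their condition rests on their place on the slide and on cell numbers that match the totals listed with the study. Buccal 3, with 2449 cells and no stratified keratinocytes, stood apart from the other buccal sections and is left out of comparisons of the epithelium. Cells were grouped into kinds from marker genes, without the members, and the kinds carry the ending -like because they rest on those markers. CPM are computed from the summed transcripts of the cells of 1 kind in 1 section, and levels are compared between cells and sections only, not between genes.

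Crabp2, the carrier of retinoic acid to the nucleus, was layered in the buccal epithelium. In the 6 buccal sections with epithelium, oral suprabasal-like keratinocytes had 14610, 17380 and 18465 CPM (lowest, median and highest section), and buccal basal-like keratinocytes 3904, 4466 and 5806 CPM. No basal value reached a suprabasal one, but the share of all genes that separate these kinds was not computed. A Crabp2 transcript was found in 68.0% to 85.4% of suprabasal-like cells and in 0.755% to 2.29% of buccal endothelial-like cells, a cell type outside the epithelium. On average 78.6% of all Crabp2 transcripts of a buccal section lay in suprabasal-like cells, although in Buccal 3, without epithelium, none did. The suprabasal cells came in 2 clusters, and the level was 24505 to 31504 CPM in one and 7210 to 11583 CPM in the other, so Crabp2 was not even across the suprabasal layers.

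Distance from the nearest fibroblast-like cell, which does not use any member, gave the same picture in finer steps. In the buccal epithelium Crabp2 was at 2340 to 4244 CPM in keratinocytes within 10 µm, at 19808 to 25428 CPM at 30 to 40 µm and at 4681 to 10028 CPM at 70 to 80 µm. Crabp2 thus peaked in the middle of the epithelium in each of the 6 sections. Split at 20 µm, near cells had 7667 ± 1556 CPM (SD, n = 6 sections) and far cells 16006 ± 1471 CPM, and near cells were lower in 6 of 6 sections (exact sign-flip test, two-sided, p = 0.0313, the smallest that 6 sections allow, adjusted p = 0.125 over 12 tests). In Control skin near cells were lower in 3 of 3 sections, with means of 6475 ± 1590 and 8394 ± 1933 CPM, and in PITX1+ skin in 2 of 4 sections. With 3 and 4 sections the exact test cannot go below 0.25 and 0.125.

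The partner Crabp1 showed the opposite gradient in the buccal epithelium. Its level was 761 to 1668 CPM within 10 µm of a fibroblast-like cell and 0 to 18.0 CPM at 70 to 80 µm. Split at 20 µm, the means were 798 ± 295 CPM near and 99.2 ± 84.2 CPM far (SD, n = 6), with near cells higher in 6 of 6 sections (exact p = 0.0313, adjusted p = 0.125). By kind of cell, the basal-like keratinocytes held 527, 1036 and 1330 CPM of Crabp1 (lowest, median, highest) and the suprabasal-like ones 15.3, 22.5 and 54.1 CPM. The buccal fibroblast-like cells next to this layer were themselves rich in Crabp1, at a median of 4001 CPM, and their part in the basal values was not tested. Near cells were also higher in 3 of 3 Control sections and 4 of 4 PITX1+ sections, by 135 and 189 CPM on average. The near values rest on 1 Crabp1 transcript in Control 3 and on 3 in PITX1+ 3. The near means were 352 CPM in Control and 247 CPM in PITX1+ skin, with endothelial-like cells at 176 ± 168 and 417 ± 388 CPM.

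Cyp26b1, the breakdown enzyme, was also higher away from the dermis in buccal mucosa, and its highest values lay in the outer bins. It was at 0 to 456 CPM within 10 µm and at 820 to 1513 CPM at 70 to 80 µm. The split at 20 µm gave 223 ± 69.5 CPM near and 702 ± 247 CPM far, with near cells lower in 6 of 6 sections (exact p = 0.0313, adjusted p = 0.125). In Control skin near cells were lower in 3 of 3 sections, at 2062 ± 1080 against 2392 ± 1170 CPM. In PITX1+ skin the same split gave 1019 ± 583 and 1068 ± 497 CPM, and near cells were lower in 2 of 4 sections. Endothelial-like cells, outside the epithelium, had 2634 ± 1223 CPM in Control skin, 3218 ± 3335 CPM in PITX1+ skin and 735 ± 494 CPM in buccal mucosa. The mean levels of the keratinocytes on both sides of the split were no higher than these. No adjusted p over the 12 tests of position passed 0.05. None could, since the smallest exact sign-flip p is 0.0313 with 6 sections, 0.125 with 4 and 0.25 with 3.

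**Figure D1:**
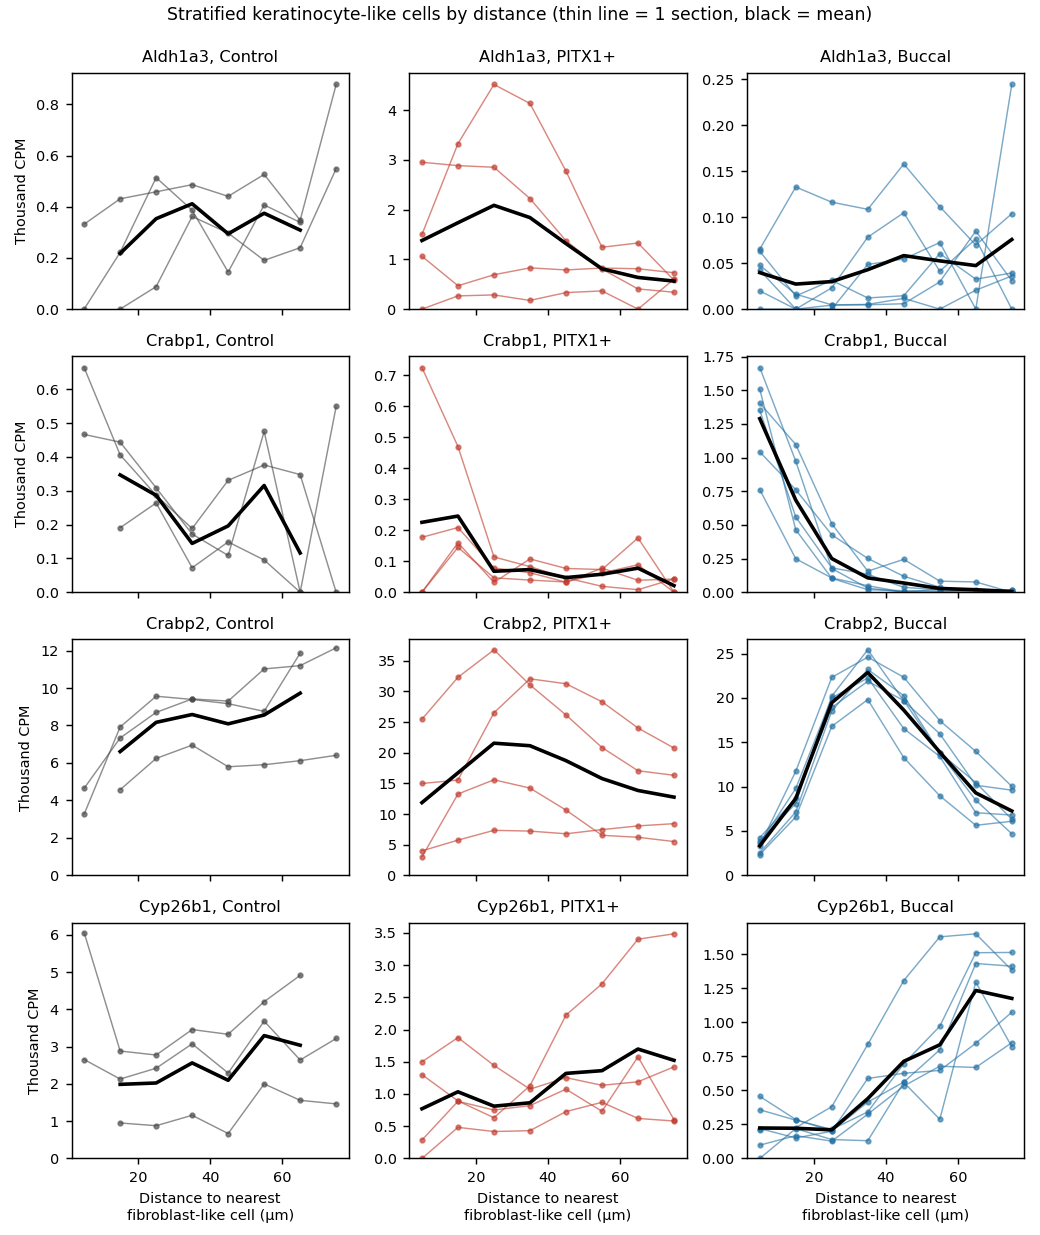
Level of the 4 members (rows) in stratified keratinocyte-like cells against the distance to the nearest fibroblast-like cell in bins of 10 µm, in Control skin, PITX1+ skin and buccal mucosa (columns). Axes show units of 1000 CPM and µm, thin lines are sections and the black line is the mean over bins that every section fills. In buccal mucosa Crabp2 peaks at 30 to 40 µm, Crabp1 falls away from the dermis and Cyp26b1 is highest in the outer bins.

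Aldh1a3, the synthesis enzyme, gave few transcripts in buccal mucosa. A total of 577 transcripts passed the quality score on the whole buccal slide, 39.0% of those decoded, and the highest of the 20 negative control probes gave 151 there. Buccal stratified keratinocyte-like cells had 13.4, 39.4 and 134 CPM (lowest, median, highest of 6 sections), so no layering could be read at this depth. In Control skin Aldh1a3 was at 464, 356 and 221 CPM in stratified keratinocyte-like cells, while the endothelial-like cells of the same sections had 937, 390 and 0 CPM. The 2 female Control sections thus showed no more Aldh1a3 in epidermis than in a cell type outside it. In the sections assigned to PITX1+ skin, activated keratinocyte-like cells, the kind marked by Krt6a and Krt16, had 4849, 1077, 8698 and 6724 CPM of Aldh1a3. Hair matrix and shaft-like keratinocytes had 1290, 1640, 5805 and 7485 CPM, with endothelial-like cells at 832, 497, 64.8 and 40.1 CPM. The activated value of PITX1+ 4 rests on few transcripts. All stratified keratinocyte-like cells of that section held 15 Aldh1a3 transcripts within 20 µm of a fibroblast-like cell and 59 farther away. Control skin held at most 3 hair matrix and shaft-like cells and 2 activated cells in a section, so neither kind has a Control level.

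In skin, Crabp2 was high in sebaceous-like cells, in parts of the follicle and, in PITX1+ skin, in activated keratinocyte-like cells. In Control skin sebaceous-like cells had 36572, 18425 and 20958 CPM and upper hair follicle-like keratinocytes 18574, 13236 and 8950 CPM, against 3247, 3368 and 1686 CPM in hair bulge-like keratinocytes. Every upper follicle value lay above every bulge value, and the share of all genes for which this holds was not computed. In the PITX1+ sections the highest Crabp2 was in upper follicle-like cells (71438, 64084, 34304 and 23607 CPM), companion layer-like cells (63088, 33008, 19472 and 18688 CPM) and activated keratinocyte-like cells (50769, 39242, 24822 and 14482 CPM). The 3 ranges overlapped, and within each kind both female sections were above both male ones.

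Cyp26b1 and Crabp1 reached high levels in dermal cells of skin, though not only there. Cyp26b1 was at 10160, 6234 and 2263 CPM in the fibroblast-like cells of Control skin and at 12256, 10337 and 3859 CPM in dermal papilla-like cells, the mesenchyme at the base of the follicle. Crabp1 was highest in dermal papilla-like cells, at 27796, 8161 and 5201 CPM, and far lower in the fibroblast-like cells of Control skin, at 736, 302 and 143 CPM. The papilla values rest on 100, 41 and 129 cells and on 127, 15 and 31 Crabp1 transcripts. Within the hair follicle Cyp26b1 was also found in bulge-like keratinocytes (5942, 5861 and 7032 CPM in Control skin) and in 1 cluster of hair matrix cells in PITX1+ skin (9819, 11369, 7781 and 8996 CPM). The bulge mean in Control skin, 6278 ± 654 CPM, was no lower than the 6219 ± 3949 CPM of fibroblast-like cells. Crabp1 in Control skin was at 1615 ± 1071 CPM in T and NK-like cells and 742 ± 679 CPM in bulge-like cells. Its mean in fibroblast-like cells was 394 ± 307 CPM.

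**Figure D2:**
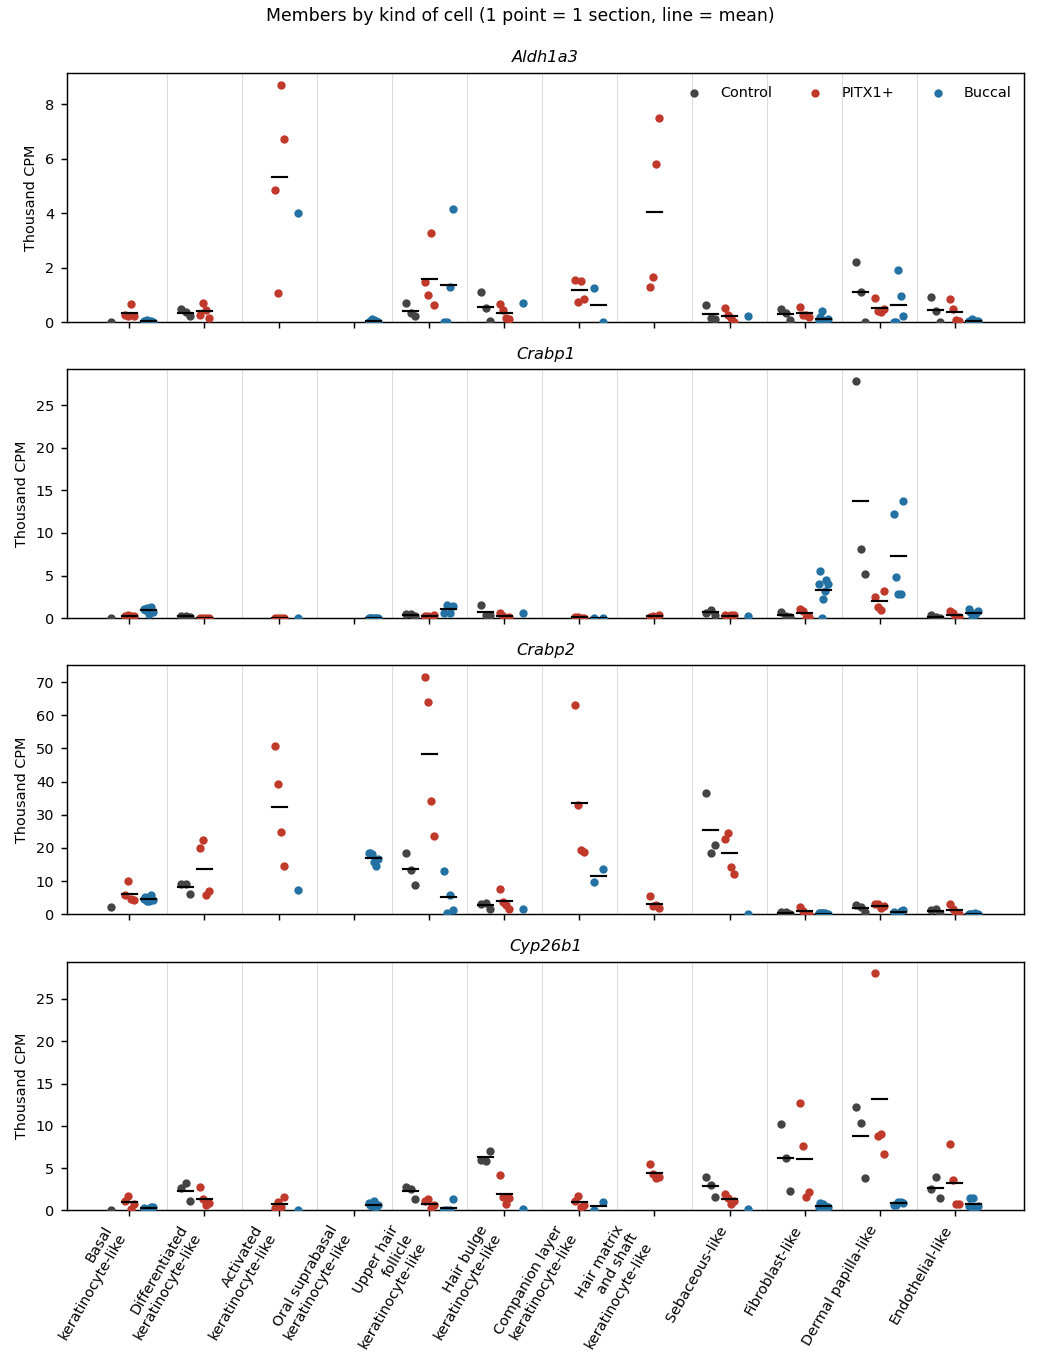
Level of the 4 members (panels) by kind of cell, in units of 1000 CPM, with Control skin in grey, PITX1+ skin in red and buccal mucosa in blue. Each point is a section and the black line is the mean of a group. Crabp2 stands out in upper follicle, companion layer and activated keratinocyte-like cells of PITX1+ skin, and Aldh1a3 in activated and hair matrix cells. Crabp1 stands out in dermal papilla-like cells, and Cyp26b1 in fibroblast and dermal papilla-like cells of skin and in bulge-like cells of Control skin.

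The first comparison asked how the 4 genes differ between PITX1+ and Control skin, for all cells and for 4 classes of cells, with edgeR on sums per section, slide as a covariate and adjustment over all genes tested. Over all cells Aldh1a3 was at 562, 370 and 98.5 CPM in Control skin and at 1308, 615, 1487 and 937 CPM in the PITX1+ sections. Every PITX1+ section lay above every Control section, which was so for 11% of the 328 genes. The log2 fold change was 1.83 ± 0.55 (SE, adjusted p = 0.049), the 1 member called among 20.4% of all genes. This call lies at the threshold. The adjusted p of Aldh1a3 was 0.056 with library size, 0.158 without the slide covariate, 0.147 with transcripts over the nucleus only and 0.043 to 0.135 as each section was left out, and without Control 3, the only male Control section, the log2 fold change was 1.08. Crabp2 did not pass (log2 fold change 1.27 ± 0.44, adjusted p = 0.078). With library size it was called (1.41, adjusted p = 0.038), and DESeq2 called both Crabp2 and Aldh1a3 (adjusted p = 0.019 and 0.0037). Sums over all cells also hold the makeup of a section, and fewer cells of a kind and less RNA per cell cannot be told apart in them.

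Hair follicle-like keratinocytes gave the most calls, 3 of the 4 members against 40.9% of the 328 genes. Aldh1a3 rose from 826, 403 and 118 CPM to 1342, 917, 2231 and 2540 CPM, with no overlap between groups (log2 fold change 2.04 ± 0.59, adjusted p = 0.030). With library size the adjusted p was 0.063, and without Control 2 it was 0.092, while without Control 3 the log2 fold change was 1.24. Within slides the difference was 1.26 on the female and 4.08 on the male slide (log2), and the test of that gap gave an adjusted p of 0.10. Crabp2 was at 13980, 10194 and 5042 CPM in Control skin and at 54300, 26418, 10297 and 5899 CPM in PITX1+ skin (log2 fold change 1.40 ± 0.47, adjusted p = 0.046). Only the female PITX1+ sections stood above all Control sections, and the within-slide differences were 2.11 and 0.42, a gap with an adjusted p of 0.259.

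Cyp26b1 fell in the same class. It was at 3760, 3604 and 4334 CPM in Control skin and at 1897, 2118, 1372 and 2041 CPM in PITX1+ skin, with no overlap (log2 fold change -0.98 ± 0.28, adjusted p = 0.030). Crabp1 was at 767, 484 and 320 CPM against 284, 241, 78.7 and 206 CPM, also without overlap, at an adjusted p of 0.060. It was called with library size (log2 fold change -1.23, adjusted p = 0.039) and by DESeq2 (adjusted p = 0.010), so which members are called depends on the method. Sections were wholly below Control for 11% of genes and wholly above for 13.4%. The class did not hold the same cells in both conditions: an upper follicle-like cluster, numbered 32, and a bulge-like one made up 55.6% and 32.2% of it in Control skin, and the largest cluster in PITX1+ skin, a different bulge-like one, made up 20.3%. That share is pooled over sections, and this cluster had 12536 cells on the female and 692 on the male slide. The 10 leading genes of cluster 32 held Krt79 and Lrig1 of the upper follicle, but also Krt15, a bulge marker, Col17a1, a basal marker, and Fcgbp, which led the list. With 30 clusters a cluster led by several of these genes took the basal name, so the Control values of this class may hold basal epidermis. With 30 clusters in place of 45 the log2 fold change of Crabp2 was 0.00 (adjusted p = 1.00), that of Cyp26b1 turned to 0.32 (adjusted p = 0.532) and the adjusted p of Aldh1a3 was 0.090. Without the slide covariate the adjusted p was 0.194 for Crabp2 and 0.207 for Cyp26b1. As each section was left out, the adjusted p of Crabp2 reached 0.164 (without Control 2) and that of Cyp26b1 0.182 (without Control 3, log2 fold change -0.54), and both calls were lost without Control 1, Control 2 or PITX1+ 2 in turn, that of Crabp2 also without PITX1+ 1 (0.93) or 3 and that of Cyp26b1 also without PITX1+ 4.

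Within kinds of follicle cell, levels are given without a test. Aldh1a3 overlapped between conditions in upper follicle-like cells (426 ± 253 CPM in Control against 1592 ± 1180 CPM in PITX1+ skin). It also overlapped in bulge-like cells, with the lower mean in PITX1+ skin (554 ± 537 against 350 ± 269 CPM). Crabp1 overlapped in both kinds (427 ± 126 against 248 ± 85.6 CPM and 742 ± 679 against 262 ± 231 CPM), and Crabp2 in bulge-like cells (2767 ± 938 against 3943 ± 2577 CPM). Crabp2 in upper follicle-like keratinocytes was 13587 ± 4821 CPM in Control skin and 48358 ± 23023 CPM in PITX1+ skin (SD, n = 3 and 4), a ratio of 3.56, and each PITX1+ section lay above each Control section, as for 8.05% of the genes of this kind. A Crabp2 transcript was seen in 30.9%, 26.4% and 13.6% of these cells in Control skin and in 73.4%, 73.0%, 46.3% and 44.5% in PITX1+ skin, and in 0.202% to 6.05% of the endothelial-like cells of these sections. Upper follicle-like cells held a median of 18 to 30 transcripts in Control skin and 31 to 64.5 in PITX1+ skin, which also moves such shares. Cyp26b1 in upper follicle-like cells was 2832, 2585 and 1321 CPM against 1070, 1309, 277 and 626 CPM, below Control in each section, as for 14.2% of genes. Endothelial-like cells had 2634 ± 1223 CPM of Cyp26b1 in Control and 3218 ± 3335 CPM in PITX1+ skin. The upper follicle means were no higher than these. The upper follicle kind held 4251 cells of cluster 32 and 591 of a second cluster, numbered 24, in Control skin, against 10635 and 8841 in PITX1+ skin. Within cluster 32 Crabp2 was at 14457, 10755 and 6820 CPM in Control and 35589, 37829, 14550 and 14327 CPM in PITX1+ skin, and within cluster 24 at 42027, 29468 and 19625 CPM against 90146, 80705, 43818 and 38748 CPM. In both, PITX1+ 4 lay within the Control range and the other PITX1+ sections above it. Cyp26b1 overlapped between conditions within both clusters, at 1496 to 3051 against 682 to 2355 CPM and at 441 to 2052 against 57.8 to 768 CPM. In bulge-like cells it was 6278 ± 654 CPM against 1991 ± 1497 CPM, below in each section, as for 9.82% of genes. The bulge values rest on different clusters, however. In the cluster that made up most bulge cells of Control skin, Cyp26b1 was at 5956, 6093 and 8490 CPM in Control and 1166, 11621, 2275 and 6116 CPM in PITX1+ skin, and the groups overlapped.

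In stratified keratinocyte-like cells no member passed edgeR's test, and 1.87% of the 321 genes did. Aldh1a3 and Crabp2 had an unadjusted p under 0.05, and DESeq2 called both (adjusted p = 9.00e-04 and 0.0069). Aldh1a3 was at 464, 356 and 221 CPM in Control skin and 2004, 742, 3352 and 255 CPM in PITX1+ skin (log2 fold change 2.81 ± 0.80, adjusted p = 0.083). Crabp2 was at 9202, 9111 and 6065 CPM against 29165, 26440, 12338 and 6907 CPM (1.78 ± 0.56, adjusted p = 0.098). In both genes PITX1+ 4 alone lay within the Control range. Without it both passed edgeR's test (3.04, adjusted p = 0.0039, and 2.06, adjusted p = 0.042), and Crabp2 also passed without Control 3 (2.69, adjusted p = 0.0080). With any other section left out the adjusted p was 0.106 to 0.254 for Aldh1a3 and 0.112 to 0.431 for Crabp2. Crabp1 lay below Control skin in each PITX1+ section, as for 11.8% of genes, and did not pass (-0.61 ± 0.39, adjusted p = 0.341). The size depends on the scaling, since library size put the median gene of this class 0.65 lower on the log2 scale than TMM. With library size Crabp1 was at -1.32 (adjusted p = 0.113), and Cyp26b1 moved from -0.27 to -0.90 (adjusted p = 0.111). On the male skin slide 1614 Crabp1 transcripts passed the quality score, 53.6% of those decoded. The 20 negative control probes there gave a median of 29 and at most 601. How far the low Crabp1 values of PITX1+ 3 and 4, here and in follicle-like cells, stand above background was not tested. The class did not hold the same cells in both conditions. In Control skin 58.6% and 40.4% of it fell in 2 differentiated clusters, with 7, 3 and 61 basal-like cells. Krt15 and Col17a1, genes of basal cells, were among the 10 leading genes of the larger one, so basal and differentiated cells are not told apart there. In PITX1+ skin 25.2% of the class fell in a basal-like cluster and 18.4% and 14.9% in activated clusters. These shares are pooled over sections and come mostly from the female slide. The basal-like cluster had 4497 cells on the female and 282 on the male slide, and the activated ones 3385 and 2223 against 62 and 572. In differentiated keratinocyte-like cells alone, Aldh1a3 was at 464, 356 and 227 CPM in Control skin and at 277, 706, 451 and 161 CPM in PITX1+ skin, and the groups overlapped. This kind too was made of different clusters, the largest with 4357 and 3002 cells in Control skin and with 3430, 2520 and 1534 cells in PITX1+ skin, and the largest in Control skin was the smallest of those 3 in PITX1+ skin. The cluster with 2520 cells had 2502 cells on the female and 20 on the male slide. Crabp2 in differentiated keratinocyte-like cells was at 9205, 9117 and 6188 CPM against 19876, 22324, 5713 and 6990 CPM, above Control skin in the female sections only.

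The remaining classes gave 1 call. In fibroblast-like cells Crabp2 passed (log2 fold change 1.32 ± 0.35, adjusted p = 0.035, 10.1% of the 328 genes called), from 764, 818 and 129 CPM to 2411, 1258, 761 and 656 CPM. The groups overlapped. Within a slide the log2 ratio was 0.93 on the female and 2.08 on the male slide, where Control 3 had 17 transcripts of the gene in this class. Dermal papilla-like cells made up 1.81% to 4.16% of this class in Control skin and 10.8% to 35.0% in PITX1+ skin, and their own Crabp2 was 1898 ± 1114 and 2573 ± 592 CPM. In the fibroblast kind alone Crabp2 was 528 ± 371 against 889 ± 1023 CPM, and the groups overlapped. Endothelial-like cells of the same PITX1+ sections had 3232, 1500, 185 and 138 CPM of Crabp2. On the female slide the fibroblast values were thus no higher than in endothelial-like cells. On the male slide those of the class were higher, and the fibroblast kind alone was at 201 and 122 CPM there. The share of this level that comes from neighbouring epithelium was not tested. The call was lost without the slide covariate (adjusted p = 0.702) and without Control 1, Control 3 or PITX1+ 1, 2 or 3 in turn (0.074 to 0.166). Cyp26b1 in the same class was 10234, 6311 and 2335 CPM against 14568, 7822, 4257 and 3162 CPM, a log2 fold change of 0.27 ± 0.27 (adjusted p = 0.565). In sebaceous-like cells, with 9.55% of 199 genes called, none of the 3 members tested passed by edgeR or by DESeq2 (which gave Crabp1 no adjusted p), Cyp26b1 alone had an unadjusted p under 0.05, and Aldh1a3 was too low to be tested.

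Crabp1 in dermal papilla-like cells was the one dermal level with separate groups. It was 13720 ± 12280 CPM in Control skin and 2548, 1302, 949 and 3220 CPM, or 2005 ± 1062 CPM, in PITX1+ skin, a ratio of 6.84 of Control over PITX1+. Each PITX1+ section was below each Control section, as for 4.81% of the 270 genes of this kind. The Control value is led by Control 1, and the kind grew from 41 to 129 cells a section in Control skin to 1136 to 3012 cells in PITX1+ skin, so the cells compared need not be alike. Cyp26b1 in the same cells overlapped between conditions, at 8818 ± 4400 and 13121 ± 9985 CPM.

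**Figure D3:**
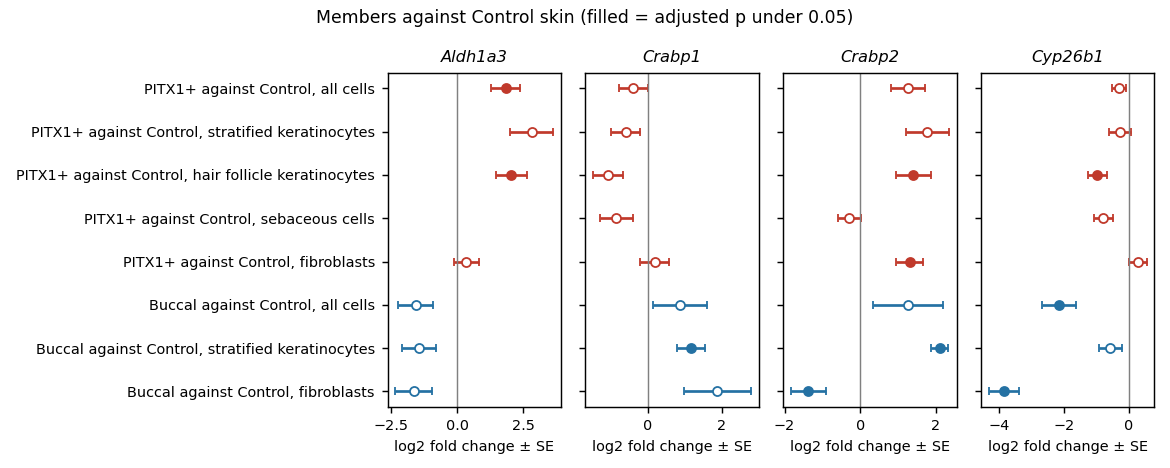
Log2 fold change of each member in the 8 comparisons with Control skin, as edgeR estimates with bars of 1 SE, where filled points passed an adjusted p of 0.05. In PITX1+ skin Aldh1a3 lies above 0 and Cyp26b1 passes below 0 in hair follicle-like keratinocytes, and in buccal mucosa Crabp2 passes above 0 in stratified keratinocytes and Cyp26b1 below 0 in fibroblasts.

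The second comparison set buccal mucosa against Control skin. Crabp2 rose in the stratified epithelium, from 9202, 9111 and 6065 CPM in Control skin to 12210, 14393 and 16395 CPM (lowest, median, highest of 6 buccal sections), and every buccal section lay above every Control section, as for 15% of genes. The log2 fold change was 2.11 ± 0.23 (edgeR adjusted p = 2.01e-05), and it stayed past the threshold in each of 17 alternatives, between 0.83 and 2.31. The low end is the fit scaled by library size. The size therefore depends on the scaling, because TMM and library size put the median gene of this comparison 1.26 apart on the log2 scale. Of the 4 members 2 were called here, against 68.5% of all 321 genes tested. The cells compared lay in different clusters, with 58.6% and 40.4% of the Control class in differentiated clusters and 41.9% of the buccal class in a basal-like and 34.4% and 23.1% in oral suprabasal-like clusters.

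Crabp1 was the other one. It was at 309, 271 and 135 CPM in Control and at 98.7, 211 and 402 CPM (lowest, median, highest) in buccal epithelium, and its log2 fold change was 1.17 ± 0.37 with TMM (adjusted p = 0.017) and -0.088 with library size (adjusted p = 0.866). The CPM ranges overlapped, so this call comes with the scaling and no direction is drawn from it. Aldh1a3 and Cyp26b1 were lower in all 6 buccal sections than in any Control section, as were 51.7% of genes, and did not pass with TMM (log2 fold change -1.45 ± 0.64, adjusted p = 0.067, and -0.58 ± 0.36, adjusted p = 0.172). With library size both passed, at -2.75 and -1.94 (adjusted p = 0.0017 and 3.09e-04).

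Among the 8 comparisons tested, the largest log2 fold change of a member was in buccal fibroblast-like cells. Cyp26b1 in the fibroblast-like class fell from 10234, 6311 and 2335 CPM in Control skin to 144, 450 and 900 CPM (lowest, median, highest of 7 buccal sections). The groups did not overlap, and 5.92% of genes lay wholly below Control. The log2 fold change was -3.84 ± 0.46 (edgeR adjusted p = 2.03e-04, 28.6% of 287 genes called), and it stayed between -4.01 and -3.56, past the threshold, in each of 18 alternatives. The class was made of different clusters, with 79.7% of buccal cells in a cluster that held 65, 33 and 97 Control cells. In that cluster Cyp26b1 was at 15286, 14143 and 2647 CPM in Control skin and at 0 to 920 CPM in the 7 buccal sections, and in the only other cluster with over 10% of the buccal class it was at 5825, 3148 and 1008 CPM against 0 to 358 CPM. In the fibroblast kind without papilla cells a Cyp26b1 transcript was found in 6.49% to 21.6% of Control cells and 0.727% to 4.23% of buccal cells, and the mean level was 12.3-fold lower in buccal mucosa, below Control in each section, as for 6.18% of genes. The mean was also lower outside the fibroblasts, with 2086 ± 1571 CPM in Control skin against 190 ± 113 CPM in macrophage and dendritic-like cells and 2528 ± 1507 against 262 ± 179 CPM in smooth muscle and pericyte-like cells, where no test was made. The 11 to 75 cells per buccal section that fell in the dermal papilla-like cluster have that name from markers alone, in a tissue without Shh cells, and are not compared. Over all cells the gene was also called, at -2.15 ± 0.52 (adjusted p = 0.0087, 38.1% of genes called), from 4451, 3906 and 1825 CPM in Control skin to 180 to 765 CPM, lower in each of the 7 buccal sections, as for 19.2% of genes, and without Buccal 1 the adjusted p was 0.051.

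Crabp1 in fibroblast-like cells was at 1690, 450 and 371 CPM in Control skin and at 4299, 5533, 28.9, 2232, 3170, 4690 and 4142 CPM in Buccal 1 to 7. All buccal sections but Buccal 3 lay above every Control section. The mean was also higher in buccal macrophage and dendritic-like cells (987 ± 656 against 134 ± 94.6 CPM in Control skin) and endothelial-like cells (587 ± 349 against 176 ± 168 CPM), where the groups overlapped and no test was made. The log2 fold change of 1.88 ± 0.91 did not pass (edgeR adjusted p = 0.129), and without Buccal 3 it was 2.06 with an adjusted p of 0.0034. The cells were largely different ones, as given above, and in the main buccal cluster Crabp1 was at 805, 832 and 147 CPM in Control and 2371 to 5989 CPM in the 6 buccal sections other than Buccal 3. Crabp2 in buccal fibroblast-like cells passed as lower (-1.37 ± 0.46, adjusted p = 0.042), at 122 to 348 CPM against 764, 818 and 129 CPM. Its level in buccal endothelial-like cells was 97.0 to 287 CPM, and 10 of 18 alternatives lost the call.

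Where the members lay with respect to each other was measured from cells with at least 2 Cyp26b1 transcripts. Crabp1 in the other cells was higher within 50 µm than beyond in 3 of 3 Control sections (627 ± 286 against 314 ± 160 CPM) and in 4 of 4 PITX1+ sections (310 ± 133 against 144 ± 97.2 CPM). In buccal mucosa it was lower near Cyp26b1 cells in 7 of 7 sections (395 ± 249 against 681 ± 348 CPM, exact sign-flip p = 0.0156, the smallest possible, adjusted p = 0.141 over 9 tests). Buccal 3 had 2 such cells and 63 cells near them, with 0 Crabp1 transcripts near and 6 beyond, and without it, a choice made after seeing the data, 6 of 6 sections were lower (461 ± 195 against 787 ± 226 CPM, exact sign-flip p = 0.0313, the smallest possible, adjusted p = 0.141). The buccal direction turned at a distance of 100 µm and with cells of at least 1 transcript as the landmark. Crabp2 was higher near Cyp26b1 cells in 3 of 3 Control, 3 of 4 PITX1+ and 6 of 7 buccal sections (all but Buccal 3), by means of 4052, 5632 and 6399 CPM. Aldh1a3 was higher near them in 4 of 4 PITX1+ sections (1352 ± 501 against 671 ± 410 CPM) and in 1 of 3 Control sections. In every section near cells had a higher median of transcripts, with 33 against 30 in Control 1 and 139 against 52 in Buccal 2. In PITX1+ 1 the near zone held 40669 cells and the far zone 13840. The kinds of cell in the zones were not compared, so their part in these differences was not tested.

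Fibroblast-like cells near hair matrix cells could be compared, among unwounded sections, in PITX1+ skin only, where 122, 1130, 570 and 526 cells had at least 3 Shh transcripts, against none in Control skin and buccal mucosa. Shh, the hedgehog ligand, marks the matrix of a growing follicle. Within 50 µm of such cells, fibroblast-like cells had 2126 ± 1106 CPM of Crabp1 and beyond it 652 ± 502 CPM (SD, n = 4), higher near in 4 of 4 sections. That direction rested on the dermal papilla-like cells, which made up 10.8% to 35.0% of the class in PITX1+ skin. Without them, a choice made after seeing the data, Crabp1 was at 55.2 ± 110 CPM near and 586 ± 503 CPM beyond, lower near in 4 of 4 sections, with no transcript near in 3 of them. Cyp26b1 in the whole class was at 5847 ± 1083 near and 7379 ± 5464 CPM beyond, higher near in 2 of 4 sections, and without papilla cells lower near in 4 of 4 (1849 ± 1976 against 6200 ± 5223 CPM). Crabp2 and Aldh1a3 in the whole class were higher near in 4 of 4 sections (2421 ± 500 against 1081 ± 938 CPM, and 616 ± 81.7 against 312 ± 187 CPM), and without papilla cells in 1 and 2 of 4. With 4 sections the exact p cannot go below 0.125, which Crabp1, Crabp2 and Aldh1a3 reached in the whole class. In the wounds, with 24, 35 and 13 Shh cells, Crabp1 in the whole class was at 7743 near and 4704 CPM beyond in the Control wound, at 3085 and 6195 CPM in PITX1+ wound 1, and at 0 transcripts in 62 near cells against 6966 CPM in PITX1+ wound 2, so it was lower near in both PITX1+ wounds.

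Other genes of the pathway were followed as a list of 10 genes, of which 4 are carriers or receptors (Rxra, Fabp5, Ppara and Pparg) and 6 are genes whose epidermal level retinoids are known to raise (Hbegf, Areg and Krt4) or lower (Krt1, Lor and Flg). In PITX1+ skin over all cells, 2 of the 10 rose and 1 fell, beside 20.4% of all genes called. Rxra, the partner of the retinoic acid receptors, fell by 1.49 on the log2 scale over all cells (edgeR adjusted p = 0.016) and by 1.25 in fibroblast-like cells (adjusted p = 0.012, and 0.060 with library size). Areg, a growth factor, rose by 2.31 over all cells and by 2.48 in follicle-like cells, and Krt4, a keratin of oral epithelium, rose by 2.63 over all cells (adjusted p = 0.040). Fabp5, which can carry retinoic acid to other receptors, rose by 2.95 in follicle-like cells and by 1.38 in fibroblast-like cells. In follicle-like cells 2 of the 10 rose and 0 fell, beside 40.9% of all genes called, and in fibroblast-like cells 1 rose and 1 fell, beside 10.1%. In stratified keratinocyte-like cells edgeR called 0 of the 10, while 6 had an unadjusted p under 0.05 and DESeq2 called 6. Of all 321 genes, edgeR called 1.87%, 78 had an unadjusted p under 0.05 and DESeq2 called 86. In sebaceous-like cells 5 of the 10 could be tested, and edgeR called 0, with 0 at an unadjusted p under 0.05 and 0 by DESeq2, which gave Flg no adjusted p.

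In buccal stratified epithelium 5 of the 10 genes were called higher and 3 lower, a share near the 68.5% of all genes called. Krt4 rose by 11.75, Fabp5 by 4.05 and Hbegf by 3.10 on the log2 scale, while Krt1 fell by 6.62, Flg fell by 4.80 and Rxra fell by 2.90, and all 6 passed with library size too. Ppara (1.16) and Lor (1.13) were called with TMM, but were at -0.00 and -0.21 with library size, so they have no settled direction. In buccal fibroblast-like cells Rxra fell by 1.70 (adjusted p = 7.77e-04) and Flg by 3.83. Krt4, a gene of the epithelium, was called higher there as well, by 5.57.

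Day 4 wounds are given as values, since there were 1 Control and 2 PITX1+ wounds, and no test was made. Intervals are 95% exact Poisson limits and cover counting error only, and the eschar was not removed. Aldh1a3 in activated keratinocyte-like cells was 1298 CPM (1143 to 1467) in the Control wound and 10270 (9992 to 10552) and 8908 CPM (8718 to 9100) in the PITX1+ wounds. The kind held mostly different clusters, since 724 of its 823 cells in the Control wound lay in one cluster and 5847 cells of the PITX1+ wounds in another, numbered 39. Within cluster 39 Aldh1a3 was at 5981 CPM in the Control wound, from 99 cells, and at 14990 and 11742 CPM in the PITX1+ wounds. Within the other cluster it was at 942 CPM against 2041 and 971 CPM. Activated keratinocyte-like cells held 17.6% of all Aldh1a3 transcripts of the Control wound and 67.7% on average in the PITX1+ wounds. Their share of cells differed too, with 823 of 18276 cells in the Control wound. In the PITX1+ wounds, of 38198 and 66959 cells, the 2 activated clusters held 5847 and 2515 cells. Crabp2 in the same cells was 19110 CPM (18503 to 19731) in the Control wound and 27353 (26900 to 27812) and 22020 CPM (21721 to 22321) in the PITX1+ wounds.

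In the wound dermis the binding protein was above unwounded skin, and the breakdown enzyme within its range. Crabp1 in the fibroblast kind was at 4599 CPM (4335 to 4875) in the Control wound and at 6172 (5891 to 6462) and 6995 CPM (6810 to 7184) in the PITX1+ wounds. Unwounded skin, on other slides, had at most 1090 CPM in this kind, and each wound lay above each unwounded skin section. The share of all genes separated in this way was not computed, for this kind or for the clusters and other cells given below. An unnamed cluster with 9596 cells on the wound slide lay outside this kind. With 30 clusters an unnamed cluster with 18092 cells on that slide shared leading genes with it and with a fibroblast-like wound cluster. The fibroblast kind of the wounds thus depends on the naming. The kind held different clusters, since 63.0% of the fibroblast-like class of the PITX1+ wounds and 25.9% of that of the Control wound lay in a cluster that was a minor part of the class in unwounded skin, in which Crabp1 was at 12823, 8784 and 8311 CPM in the wounds and at 643 to 3606 CPM in unwounded skin. In the cluster that held 51.6% of the class in the Control wound, numbered 40, it was at 1068, 943 and 956 CPM in the wounds and 0 to 1143 CPM in unwounded skin, and the ranges overlapped. Macrophage and dendritic-like cells also had 3584, 2170 and 3282 CPM of Crabp1 in the wounds and 18.8 to 434 CPM in unwounded skin. The level was thus not particular to fibroblast-like cells. Cyp26b1 in the fibroblast kind was at 3627 CPM (3393 to 3873) in the Control wound and at 10564 (10197 to 10942) and 11133 CPM (10899 to 11371) in the PITX1+ wounds, within the range of 1608 to 12731 CPM of unwounded skin. Wound and slide cannot be told apart.

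**Figure D4:**
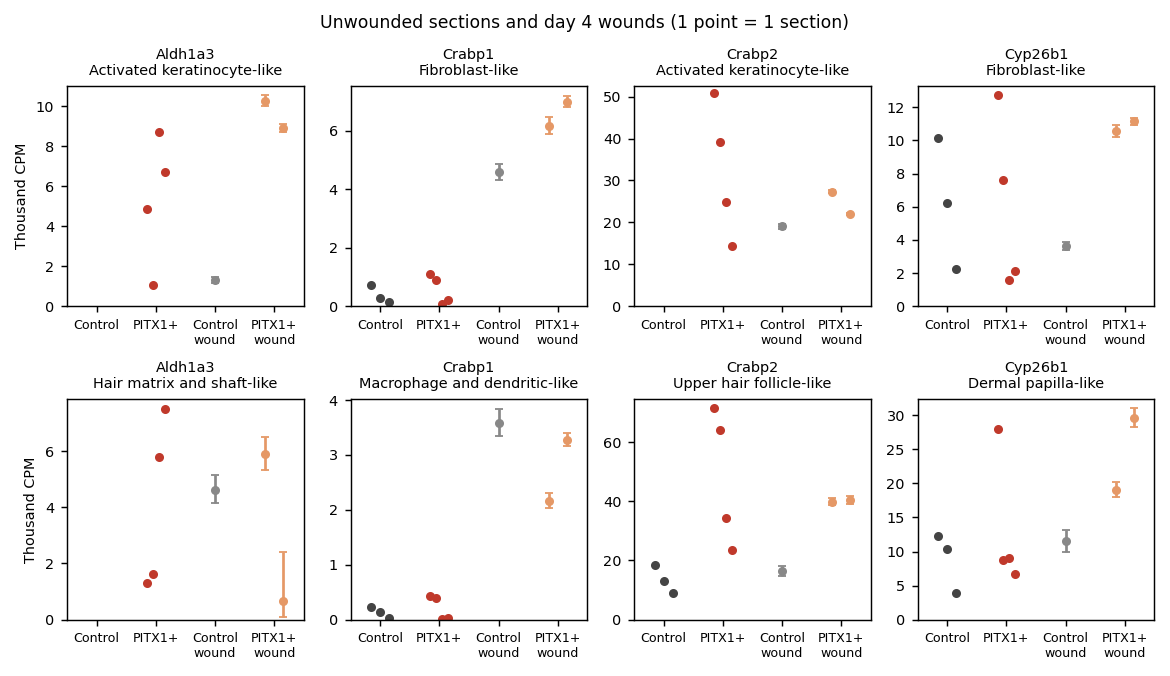
Levels of the members in 8 panels, each 1 gene in 1 kind of cell, for unwounded sections and day 4 wounds, in units of 1000 CPM. Points are sections and the bars of the wounds are 95% exact Poisson intervals. Aldh1a3 in activated keratinocyte-like cells is lower in the Control wound than in both PITX1+ wounds, and Crabp1 in the fibroblast kind is higher in all 3 wounds than in unwounded skin. How many of all genes separate the wounds in this way was not computed.

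The genes most like each member were found over 231 sums of 1 section and 1 kind of cell, from 17 sections and 19 kinds, by the Pearson correlation of log2(CPM + 10). These sums share sections and depth, so the values are a description. Aldh1a3 was most like Areg (r = 0.64), Ivl (0.62) and Krt75 (0.57), genes of a growth factor, the cornified envelope and the companion layer. Crabp2 was most like Efna3 (0.79), Krt17 (0.79) and Fabp5 (0.76). Crabp1 was most like Dkk2 (0.59), a Wnt inhibitor of the dermal papilla, Thbs2 (0.54) and Cdh11 (0.54). Efna2 (0.55) and Mlana (0.53) were among the genes most like Cyp26b1. Among the members the highest correlation was 0.43, between Aldh1a3 and Crabp2, and the lowest -0.21, between Crabp1 and Crabp2.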

How the data were processed

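The authors deposited, for each of 4 Xenium slides, a table of cells with raw counts of transcripts per cell and a table of decoded transcripts. Each deposited transcript has a quality score, and positions and the mark for lying over the nucleus are other deposited quantities, in µm or as 0 and 1. The software version and segmentation settings are not given in the sources used here. Outlines of cells were not used.

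Counting, for each cell, the transcripts scored 20 or higher gave the deposited counts in 100% of cells. Codes that belong to no gene were 0.0375% to 0.0981% of transcripts, and slide pairs shared 1 to 7 cell identifiers. Sections were cells chained within 100 µm (wounds 200 µm), numbered by position, and the first section of a slide of 3, or the first 2 of a slide of 4, were Control. The number of cells with at least 3 genes came within 0.493% of the totals listed with the study in all 7 skin sections. Cells with at least 10 transcripts were clustered by k-means (45 clusters, 40 principal components, scikit-learn 1.9.0) without the members and pathway genes, and clusters were named from marker lists. A total of 3 clusters stayed unnamed, and no doublets or eschar were removed.

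Sums per section and class (at least 20 cells) were tested by the quasi-likelihood method of edgeR 4.0.16 under R 4.3.3, after TMM scaling and its default expression filter, with Benjamini-Hochberg adjustment and a threshold of 0.05, with DESeq2 1.42.0 as an alternative. Position tests were two-sided exact sign-flip tests over sections (Python 3.11.15, numpy 2.4.6, scipy 1.17.1). Alternatives were scaling by library size, no gene filter, nuclear or all-quality transcripts, 20 transcripts per cell, 30 and 60 clusters, no slide covariate, each section left out, and other distances and landmarks. The tests were checked on simulated counts with 200 changed genes. The genes named are the members, Pitx1, Shh, the pathway list and up to 3 genes most like each member, and some genes of these lists are not reported here. The members and lists were chosen with earlier results of these data known. RefSeq listed 4 of the 4 members.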

Additional observations from a re-analysis of the deposited data

Results flagged for a closer look

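Of 32 groups of 4 to 7 sections, 3 had a section far from the others, where chance alone gives about 1 in 20. Aldh1a3 in fibroblast-like cells was at 593 CPM in PITX1+ 1, against 300 CPM in the next of the 4 PITX1+ sections. The same gene was at 404 CPM in Buccal 3, against 168 CPM in the next of the 7 buccal sections. Crabp2 in fibroblast-like cells was at 122 CPM in Buccal 6, against 254 CPM in the next section.

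Crabp1 near and far from cells with Cyp26b1 went opposite ways in skin and buccal mucosa. The difference between near and far cells was 313 ± 163 CPM in Control skin (higher near in 3 of 3 sections), 165 ± 117 CPM in PITX1+ skin (4 of 4) and -286 ± 234 CPM in buccal mucosa (0 of 7). Control minus buccal was 599 CPM (exact permutation p = 0.00833, the smallest that 3 against 7 sections allow), and PITX1+ minus buccal was 451 CPM (exact permutation p = 0.00606), both with an adjusted p of 0.00833 over the 2. Without Buccal 3, which had 63 near cells and 0 Crabp1 transcripts in them, the differences were 639 CPM (exact permutation p = 0.0119, the smallest that 3 against 6 sections allow) and 491 CPM (exact permutation p = 0.00952). Pairs of groups were tested only where the difference had opposite signs in every section of the groups compared. That choice puts the exact p at or near its smallest value, so these p-values add no support. The adjustment covers only the pairs that passed this choice. The omission of Buccal 3 was also chosen after the values were seen, and the buccal direction turned under other landmarks.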

How the results depend on the processing

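No paired analysis was possible because the section numbers come from the order on the slide and pair no sections across conditions.

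Of 496 recomputed values of members in the edgeR comparisons, 405 kept direction and side of the threshold, 50 lost the call, 35 gained it and 6 turned sign. The 6 were Cyp26b1 in PITX1+ stratified cells without Control 3 (0.021, from -0.45 over sections left out), Cyp26b1 in PITX1+ follicle cells with 30 clusters (0.32), Crabp2 in PITX1+ sebaceous cells without Control 3 (0.21, from -0.49), Aldh1a3 in PITX1+ fibroblasts without Control 3 (-0.28, to 0.82), Crabp1 there without PITX1+ 4 (-0.093, to 0.64), and Crabp1 in buccal stratified cells with library size (-0.088). Crabp2 in buccal epithelium and Cyp26b1 in buccal fibroblasts held in all.

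Of 83 position values, 11 turned sign: in PITX1+ skin without papilla cells Crabp1 (-530 CPM) and Crabp2 (-591) near Shh cells, and there also Cyp26b1 by layer at 15 µm (115 CPM), Crabp2 by layer at 30 µm (1451), Cyp26b1 near Shh cells at 25 µm (1944) and Crabp2 near Cyp26b1 cells at 25 µm (-1632). Near Cyp26b1 cells, Aldh1a3 in Control skin turned at 100 µm (-33.8) and with 3 transcripts (-2.12), Crabp1 in buccal mucosa at 100 µm (157) and with 1 transcript (51.3), and Aldh1a3 in buccal mucosa with 1 transcript (30.6).

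Counts of genes called moved by over 1.5 times as follows, and the cause was not tested. For PITX1+ all cells (67) the count was 8 without the slide covariate and 13 to 85 with a section left out. For stratified cells (6) it was 13 with library size, 86 with DESeq2, 13 over the nucleus, 0 with any quality, 0 with 20 transcripts per cell, 28 and 33 with 30 and 60 clusters, 2 without slide and 0 to 63 with a section left out, where 78 genes had an unadjusted p under 0.05. For follicle cells (134) it was 70 with 30 clusters, 29 without slide and 63 to 126. For sebaceous cells (19) it was 29 without the gene filter, 0 without slide and 3 to 34. For PITX1+ fibroblasts (33) it was 53 with DESeq2, 60 with 60 clusters, 0 without slide and 9 to 45. For buccal mucosa it was 74 to 178 over all cells (125), and in fibroblasts (82) 125 with any quality and 50 to 156.

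Library size moved the split of higher and lower calls from 104 and 116 to 53 and 188 in buccal stratified cells, 35 and 47 to 61 and 28 in buccal fibroblasts, 54 and 71 to 34 and 90 in all buccal cells, 72 and 62 to 57 and 79 in PITX1+ follicle cells, 34 and 33 to 40 and 23 in all PITX1+ cells, 23 and 10 to 28 and 3 in PITX1+ fibroblasts. Aldh1a3 in buccal mucosa, with 577 transcripts, cannot be placed by cell.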
